A study of Mus musculus with 6 samples.

Results

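The 6 genes described here, Gm8730, Tdpx-ps1, Gm37100, Gm42980, Gm45293 and Gm15446, are predicted genes and pseudogenes selected on their unstranded read counts, which separated the genotypes strongly. They are 6 of 48709 gene IDs in the count files and 6 of the 15385 genes tested for genotype. They are also the 6 genes of 1789 tested predicted genes and pseudogenes that passed the threshold of the genotype test. Under the alternatives that threshold was not always passed: with the replicate number as a block 1 of the 6 passed it, in the strand columns taken alone 4 and 3, and with single libraries left out 4 to 6. Gm42980 fell short, alone or with Gm37100, without each library but Rest_het replicate 3. Since that contrast chose the members, their own genotype values are given as a description with no test.

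The tissue was the dissected neocortex of E15.5 mouse embryos. The mutant group, Rest_het, held 3 libraries from mice with 1 Rest allele without exon 4, Rest(+/deltaExon4). The other group held 3 wild-type (WT) libraries. All were labelled C57BL/6, and the labels name separate mice but no sex, litter or preparation batch, so the p-values below measure only the spread between these samples. The protein made from Rest represses genes of neurons outside the nervous system and in progenitors, and the series concerns the alternative use of its exon 4. Libraries were made from oligo-dT-primed cDNA and held 18426652, 17891118 and 17835117 gene reads in Rest_het and 20753653, 20010687 and 19996943 in WT. Levels are given in CPM, the reads of a gene relative to all gene reads of its library, scaled by TMM, a factor that equalises most genes between libraries. A count of 3 reads corresponded to 0.145 to 0.168 CPM before that scaling.

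The groups also differed in reads of transgene sequences that the labels do not mention. The bacterial reporter sequence LacZ had 0 reads in every Rest_het library and 27, 51 and 43 in the WT libraries. Reads of the recombinase fusion Cre-ERT2 numbered 10, 16 and 17 in the Rest_het libraries and 0 in every WT library. Where these sequences come from was not examined. Which differences belong to the Rest allele and which to other loci that may differ between the groups therefore cannot be told apart. Rest itself had 309, 343 and 350 reads in Rest_het and 440, 374 and 410 in WT (log2 fold change -0.19, edgeR adjusted p 0.49). Reads of the whole gene say nothing about the deleted exon. The 8 neocortex markers summed to 1330 to 1438 CPM in Rest_het and 1386 to 1682 CPM in WT, with 0 called by edgeR or DESeq2. At an unadjusted edgeR p under 0.05 stood 2 of the 8, on opposite sides of 0 (Emx1 at 0.50 and Eomes at -0.31 on the log2 scale), beside 11.7% of all genes. The choroid plexus markers Ttr, Folr1 and Kcnj13 summed, over the 2 of 3 that were tested, to 5.65 to 360 CPM in Rest_het and 2.27 to 53.7 CPM in WT. Markers of the ventral telencephalon summed to 129 to 229 CPM in Rest_het and 114 to 167 CPM in WT, those of endothelium to 55.2 to 80.1 CPM in Rest_het and 43.5 to 78.0 CPM in WT, and those of erythroid cells to 228 to 460 CPM in Rest_het and 369 to 455 CPM in WT. Microglia markers summed to 18.5 to 26.5 CPM in Rest_het and 17.6 to 24.2 CPM in WT, and markers of meninges to 65.7 to 178 CPM in Rest_het and 71.1 to 170 CPM in WT. Of these lists edgeR and DESeq2 called 0 genes, and 1, of the choroid plexus list, had an unadjusted edgeR p under 0.05. Their part in the results below was not tested.

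A processed pseudogene is a copy of a messenger RNA that was reverse transcribed and inserted elsewhere in the genome, so it lacks the introns of its source and usually its promoter. TEC is an annotation class for transcript evidence that still awaits experimental follow-up and has no coding call, and a lincRNA is a spliced RNA without a known protein that lies between protein-coding genes. Zinc-finger genes of the C2H2 type encode arrays of repeated DNA-binding units and occur in clusters of similar copies. Because such genes resemble others, the sequence decides which of their reads can be placed.

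The 3 members with a protein-coding relative are shown first as 120-base stretches of their coding-like sequence, each beside the same stretch of the relative. These stretches hold the most differences, and capitals mark the bases that differ. Coordinates are GRCm38, and sequences and gene models are GENCODE M21. The Gm8730 stretch is chr8:102865297-102865416 on the minus strand, that of Tdpx-ps1 is chr1:99790906-99791025 on the minus strand, and that of Gm15446 is chr5:109943105-109943224 on the plus strand.
Gm8730: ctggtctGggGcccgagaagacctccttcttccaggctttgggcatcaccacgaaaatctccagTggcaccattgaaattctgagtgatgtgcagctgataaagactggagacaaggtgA
Rplp0: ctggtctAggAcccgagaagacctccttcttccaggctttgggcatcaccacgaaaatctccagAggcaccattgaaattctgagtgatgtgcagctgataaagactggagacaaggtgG
Tdpx-ps1: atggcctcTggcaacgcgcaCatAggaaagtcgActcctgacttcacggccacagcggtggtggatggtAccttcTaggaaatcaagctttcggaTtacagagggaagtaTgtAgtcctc
Prdx2: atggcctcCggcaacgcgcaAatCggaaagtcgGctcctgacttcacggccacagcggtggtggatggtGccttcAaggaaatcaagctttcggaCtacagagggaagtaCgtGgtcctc
Gm15446: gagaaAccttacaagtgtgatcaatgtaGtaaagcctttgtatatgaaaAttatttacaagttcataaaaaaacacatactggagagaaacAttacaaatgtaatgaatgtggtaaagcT
Zfp932: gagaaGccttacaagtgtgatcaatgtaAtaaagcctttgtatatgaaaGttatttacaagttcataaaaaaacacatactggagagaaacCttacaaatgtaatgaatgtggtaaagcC

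Gm8730 (ENSMUSG00000063696.7) is a processed pseudogene of 1 exon and 954 bases on the minus strand of chr8:102864845-102865798. All 954 bases align to the coding sequence of Rplp0, which encodes the P0 protein of the ribosomal stalk, with 12 differences and no gap (98.7% identity). Positions are counted from 1 at the start of the member's coding-like sequence, and each change is written as the relative's base, the position and the member's base. Of the 12 differences, 10 fall at the third position of a codon and 2 at the first, 8 are transitions, and 0 in-frame stop codons precede the end. The stretch above carries A390G, A393G, A447T and G502A. The copy thus holds the whole Rplp0 reading frame.

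Tdpx-ps1 (ENSMUSG00000082431.3) is a processed pseudogene of 597 bases on the minus strand of chr1:99790429-99791025. It aligns over its full length to the coding sequence of Prdx2, a peroxiredoxin that removes hydrogen peroxide with electrons from thioredoxin. There are 22 differences (96.3% identity), of which 9, 3 and 10 fall at codon positions 1, 2 and 3. All 12 of its transitions are changes of C to T or of G to A. It holds 3 in-frame stop codons before the end, and the change A76T in the stretch above makes the first letter of one of them. The reading frame of Prdx2 is thus broken in Tdpx-ps1, whereas that of Rplp0 is open in Gm8730.

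Gm15446 (ENSMUSG00000090015.8) spans chr5:109923400-109943936 on the plus strand, with 3780 exon bases in 5 exon intervals. GENCODE M21 lists it as protein-coding, and RefSeq lists the same symbol as a long noncoding RNA. Its closest relative is Zfp932, a C2H2 zinc-finger gene that starts 52.6 kb downstream on the same strand. Over 1578 aligned bases of the coding sequences there were 23 differences (98.5% identity), of which 5, 9 and 9 fall at codon positions 1, 2 and 3. A single block of 84 bases is present only in Gm15446 and 3 bases only in Zfp932, with 0 in-frame stops in Gm15446. A block of 84 bases has the length of 1 C2H2 unit with its linker.

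The other 3 members have no close relative: 0 annotated genes matched at least 50% of any of them. Their last 100 bases are shown because oligo-dT priming starts at a transcript's 3′ end. Capitals mark AATAAA, the most common polyadenylation signal, searched on the transcript strand. The Gm37100 end is chr1:68115195-68115294 on the minus strand, that of Gm42980 is chr5:127580010-127580109 on the plus strand, and that of Gm45293 is chr8:91634791-91634890 on the plus strand.
Gm37100: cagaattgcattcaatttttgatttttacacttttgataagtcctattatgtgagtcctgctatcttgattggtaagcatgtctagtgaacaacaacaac
Gm42980: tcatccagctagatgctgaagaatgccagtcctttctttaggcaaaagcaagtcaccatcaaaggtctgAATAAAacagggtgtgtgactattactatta
Gm45293: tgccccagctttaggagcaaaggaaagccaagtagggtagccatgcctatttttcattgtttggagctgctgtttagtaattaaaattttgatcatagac

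Among the 6 members, Gm42980 is the one with AATAAA in its last 100 bases. The same letters occur in the last 100 bases of 29.2% of 6403 lincRNA and TEC genes and of 34.5% of 45980 genes in all. The longest run of A was 4 to 7 bases, read in a single transcript per member. None of these holds a run of 10 or more, which 11.8% of the lincRNA and TEC genes do. GC content ranged over the members, with 56.6% in Gm8730, 51.6% in Tdpx-ps1, 49.1% in Gm42980, 47.6% in Gm45293, 40.0% in Gm15446 and 38.4% in Gm37100.

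Gm8730 had 317, 323 and 322 reads in the Rest_het libraries and 30, 34 and 33 in the WT libraries. This equals 17.1, 17.9 and 17.1 CPM in Rest_het against 1.43, 1.79 and 1.70 CPM in WT, or 17.4 ± 0.450 CPM and 1.64 ± 0.186 CPM (SD, n = 3 each). Every Rest_het library lay far above every WT library, and the libraries within a genotype were close together. The log2 fold change was 3.40 with SE 0.15, a 10.6-fold higher level with an interval of 8.61 to 13.0 (95%, normal approximation from the SE). With 3 libraries per group that approximation makes the interval too narrow. In bulk tissue, more cells with the transcript and more transcript per cell cannot be told apart, which holds for all 6 members.

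Gm37100 and Gm42980 were nearly absent from the WT libraries. Gm37100 (ENSMUSG00000102449.1) is a TEC gene of 1353 bases on the minus strand of chr1:68115195-68116547. It had 27, 33 and 41 reads in Rest_het and 0, 0 and 1 in WT. Gm42980 (ENSMUSG00000106015.1) is a lincRNA with 2 exons and 1028 exon bases on the plus strand of chr5:127578750-127580109. It had 26, 26 and 39 reads in Rest_het and 0, 0 and 1 in WT. Both genes were thus seen in all 3 Rest_het libraries and each by 1 read in a single WT library, WT replicate 3, without which both stood at 0 reads in WT. Scaled for gene reads, the summed ratio was 113 for Gm37100 (101 reads against 1, 95% interval 19.9 to 4520) and 102 for Gm42980 (91 against 1, 17.9 to 4077). These intervals are exact and cover counting error only. The reads carry no molecular identifiers, so copies made in PCR are counted as reads. Fitted log2 fold changes were 6.29 with SE 0.66 and 6.14 with SE 0.68, and they depend on how a count of 0 is treated.

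Gm45293 (ENSMUSG00000110325.1) showed the opposite pattern. It is a TEC gene of 1812 bases on the plus strand of chr8:91633079-91634890. It had 1, 2 and 2 reads in Rest_het and 74, 37 and 57 in WT, or 0.0904 ± 0.0315 CPM and 2.81 ± 0.800 CPM (SD, n = 3 each). The Rest_het counts were all below the level of 3 reads, while the WT libraries differed among themselves up to the gap between 37 and 74 reads. The summed read ratio of WT over Rest_het was 29.9 with an exact 95% counting interval of 12.6 to 93.4 (5 reads in Rest_het against 168 in WT), and the fitted log2 fold change was -4.86 with SE 0.45.

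Tdpx-ps1 and Gm15446 were lower in Rest_het but well above the floor in both genotypes. Tdpx-ps1 had 75, 90 and 94 reads in Rest_het and 346, 277 and 258 in WT, or 4.68 ± 0.541 CPM and 14.8 ± 1.63 CPM (SD, n = 3 each). The highest Rest_het library, at 4.99 CPM, lay far below the lowest WT library, at 13.3 CPM, and the log2 fold change was -1.66 with SE 0.15. Gm15446 had 1084, 1057 and 1115 reads in Rest_het and 2309, 2428 and 2253 in WT, or 58.8 ± 0.374 CPM and 118 ± 9.04 CPM (SD, n = 3 each). Its 3 Rest_het libraries were almost equal, with a coefficient of variation of 0.636% against 7.65% in WT. The log2 fold change was -1.01 with SE 0.08, so the WT level was 2.01-fold that of Rest_het.

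**Figure D1:**
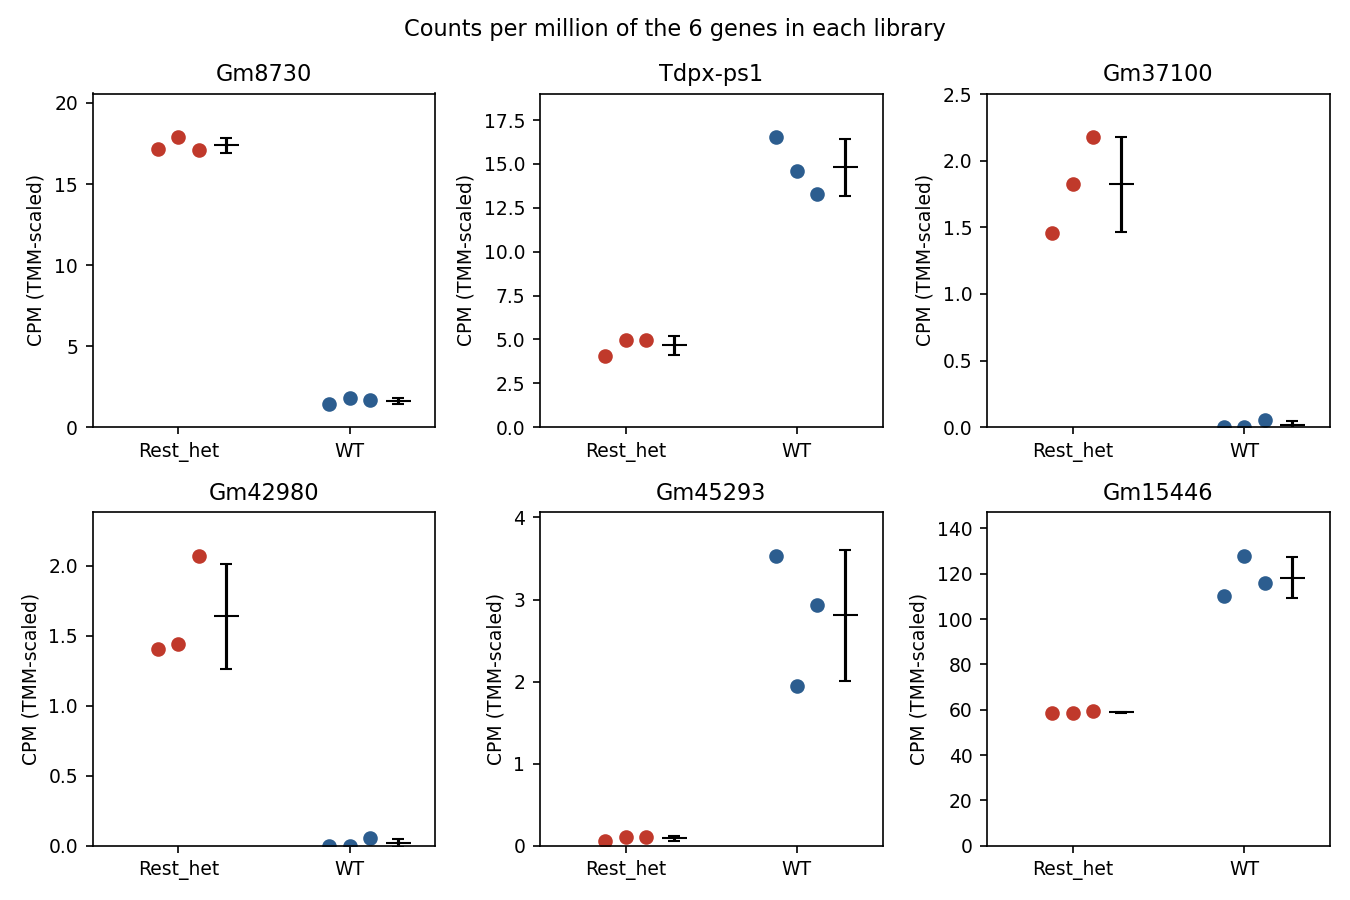
TMM-scaled CPM (y axis, from 0) of each of the 6 genes in the 3 Rest_het libraries (red points) and the 3 WT libraries (blue points), with the mean and SD beside each group. Gm8730, Gm37100 and Gm42980 are higher in Rest_het and Tdpx-ps1, Gm45293 and Gm15446 lower, with no overlap of the groups in any panel; Gm37100 and Gm42980 are at or near 0 in WT and Gm45293 near 0 in Rest_het.

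Of the 6 members 3 were higher and 3 lower in Rest_het, and in all 6 the groups did not overlap, which also held for 19.3% of all tested genes. The edgeR test called 0.123% of tested genes, 0.065% higher and 0.0585% lower. Nothing is read from the members' own counts here, because this contrast chose them. Across all 48709 gene IDs, 3 genes had at most 2 reads in every library of one genotype and at least 25 in every library of the other (0.00616%). They are Gm37100, Gm42980 and Gm45293, and both limits were set after their counts had been seen. Called genes made up 2 of 422 tested processed pseudogenes, 2 of 598 tested TEC genes and 1 of 369 tested lincRNAs, all of them members, and 14 of 13044 tested protein-coding genes, Gm15446 among them. The class of predicted genes and pseudogenes as a whole had 10.1% of its tested genes at an unadjusted edgeR p under 0.05, against 11.7% of all genes.

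Gm42980 was the last member inside the threshold. The next 3 predicted genes by p were TEC genes outside it, with edgeR adjusted p of 0.166, 0.168 and 0.177 in the order below. Gm37407 on chromosome 1 averaged 8.02 ± 0.841 CPM in Rest_het and 13.8 ± 1.13 CPM in WT. Gm37297 on chromosome 1 averaged 19.1 ± 4.90 CPM in Rest_het and 46.7 ± 11.1 CPM in WT. Gm42692 on chromosome 3 averaged 69.2 ± 8.49 CPM in Rest_het and 115 ± 15.9 CPM in WT (SD, n = 3 each). All 3 were lower in Rest_het, with log2 fold changes of -0.78, -1.29 and -0.73. The lower members stood at -4.86 (Gm45293), -1.66 (Tdpx-ps1) and -1.01 (Gm15446), so Gm37297 changed by a larger fold than Gm15446.

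Levels were compared between the members per kilobase of exon. In Rest_het, Gm8730 had the highest level with 18.2 ± 0.472 CPM per kb, then Gm15446 with 15.6 ± 0.0990, Tdpx-ps1 with 7.84 ± 0.906, Gm42980 with 1.59 ± 0.365, Gm37100 with 1.35 ± 0.266 and Gm45293 with 0.0499 ± 0.0174 CPM per kb (SD, n = 3). The libraries of neighbours in this order did not overlap except those of Gm42980 (1.37 to 2.02) and Gm37100 (1.08 to 1.61 CPM per kb). In WT, Gm15446 led with 31.3 ± 2.39 CPM per kb and Tdpx-ps1 followed with 24.8 ± 2.74. Gm8730 at 1.72 ± 0.195 and Gm45293 at 1.55 ± 0.442 CPM per kb overlapped between libraries, and Gm42980 and Gm37100 were at the floor. Against all tested genes, Gm8730 stood at the 85.7th percentile of levels per kb in Rest_het and the 39.5th in WT, and Tdpx-ps1 at the 71.5th in Rest_het and the 89.1st in WT.

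The question for the members with a relative was whether the relative moved too. Rplp0 had 8758, 8687 and 9505 reads in Rest_het and 11709, 10861 and 10845 in WT, or 487 ± 16.4 CPM and 564 ± 7.97 CPM (SD, n = 3 each). Its log2 fold change was -0.21 with SE 0.07 (edgeR adjusted p 0.36, unadjusted 0.017), so the measured values lay on the other side of 0 from Gm8730 and missed the threshold. Prdx2 averaged 692 ± 33.7 CPM in Rest_het and 721 ± 50.7 CPM in WT (SD, n = 3 each; log2 fold change -0.06 with SE 0.08, edgeR adjusted p 0.81). Zfp932 averaged 18.8 ± 1.55 CPM in Rest_het and 20.99 ± 0.258 CPM in WT (SD, n = 3 each; -0.15 with SE 0.10, edgeR adjusted p 0.56). None of the relatives passed the edgeR threshold. The groups overlapped for Prdx2 but not for Rplp0 or Zfp932, both lower in Rest_het. Zfp932 had 17.3 to 20.4 CPM in Rest_het and 20.7 to 21.3 CPM in WT. Groups without overlap also held for 19.3% of all tested genes.

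Relative to the parent gene, Gm8730 had 36.2, 37.2 and 33.9 reads per 1000 Rplp0 reads in Rest_het and 2.56, 3.13 and 3.04 in WT. Tdpx-ps1 had 5.96, 6.83 and 7.51 reads per 1000 Prdx2 reads in Rest_het and 24.8, 19.1 and 18.2 in WT. The ratios differed between genotypes without overlap, as the members' levels did. Gm15446 exceeded its relative in every library, with 3106, 3388 and 2904 reads per 1000 Zfp932 reads in Rest_het and 5320, 6025 and 5536 in WT.

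**Figure D2:**
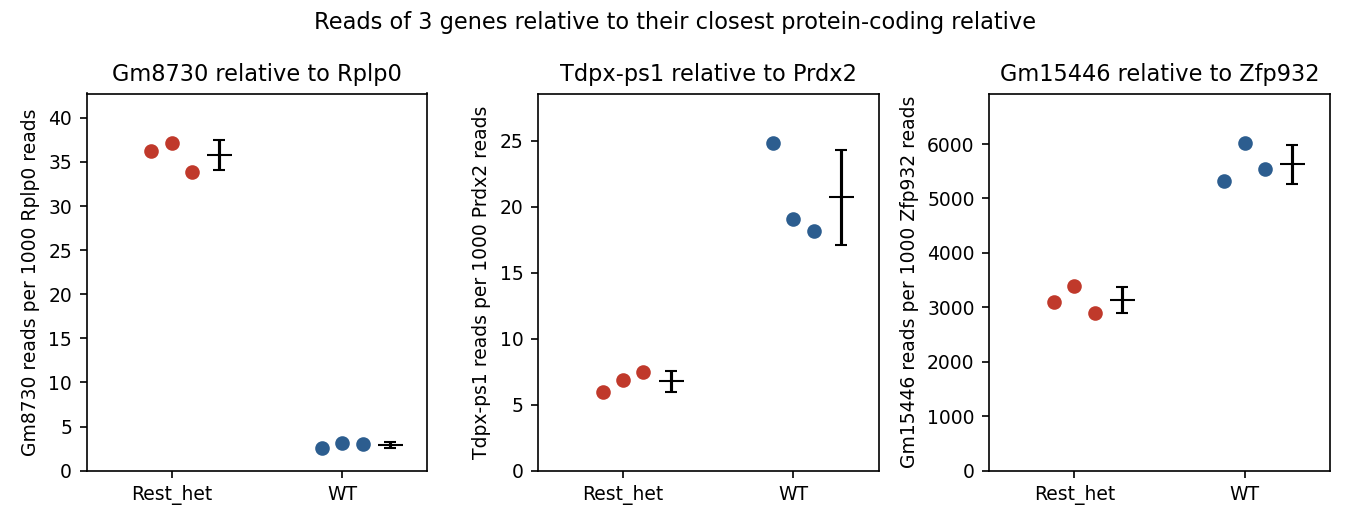
Reads of Gm8730, Tdpx-ps1 and Gm15446 per 1000 reads of Rplp0, Prdx2 and Zfp932 (y axis, from 0) in the Rest_het (red) and WT (blue) libraries, with mean and SD. The ratio is higher in all 3 Rest_het libraries for Gm8730 (33.9 to 37.2 against 2.56 to 3.13) and lower for Tdpx-ps1 (5.96 to 7.51 against 18.2 to 24.8) and Gm15446 (2904 to 3388 against 5320 to 6025).

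How well reads can be placed was read from the annotated transcripts. Of all 126-base windows of Gm8730, the length of 1 read, 20.4% occur without a difference in another annotated transcript, 5.43% in Rplp0. The shares were 7.42% for Tdpx-ps1, all in Prdx2, and 13.4% for Gm15446, all in Zfp932. For Gm15446 the windows came from a single transcript of 2417 bases, while its exons cover 3780 bases. For Gm37100, Gm42980 and Gm45293 it was 0%. Reads that matched several places stayed out of the gene counts. With the reference sequence and no misread base, reads of the 3 similar members in the searched transcripts thus come from the stretches with differences. Sequence variants of these mice and copies outside the annotated transcripts were not examined. The longest run shared without a difference was 170 bases between Gm8730 and Rplp0, 160 between Tdpx-ps1 and Prdx2 and 195 between Gm15446 and Zfp932.

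**Figure D3:**
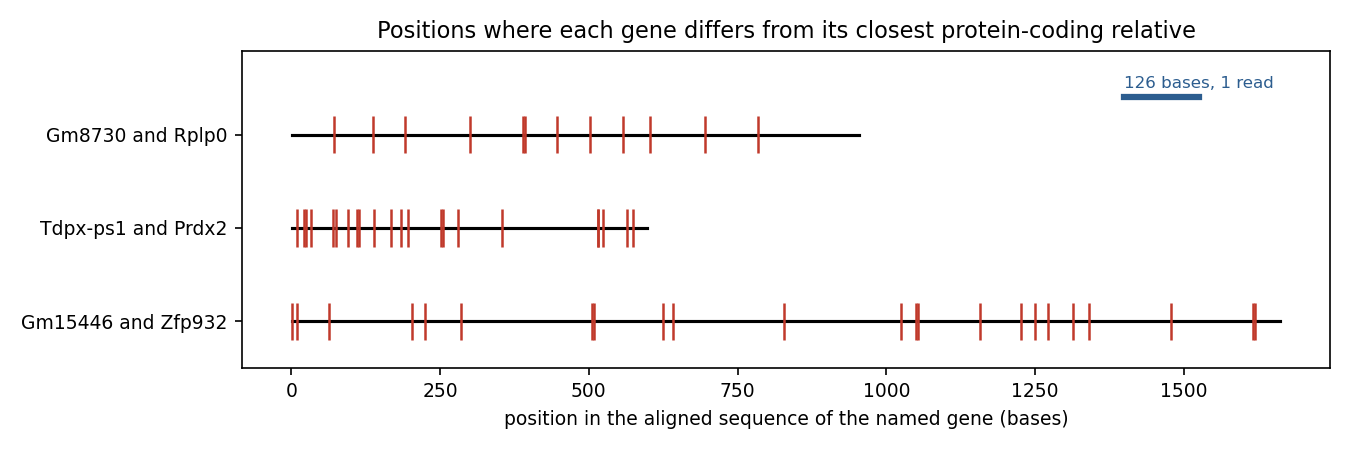
Positions (x axis, bases from the start of the coding-like sequence) at which Gm8730, Tdpx-ps1 and Gm15446 differ from Rplp0, Prdx2 and Zfp932 (red ticks); black lines span the aligned sequence and the blue bar is 1 read of 126 bases. Gm8730 has 12 differences, Tdpx-ps1 22, most of them in its first part, and Gm15446 23.

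Other copies of Rplp0 also resemble Gm8730, though less closely than Rplp0 does. Gm14165 on chromosome 2 (97.6% identical to Gm8730) had 32, 35 and 40 reads in Rest_het and 20, 19 and 17 in WT. Its log2 fold change was 1.03 with SE 0.26 (edgeR adjusted p 0.32, unadjusted 0.0045), and its groups did not overlap. Gm9625 on chromosome 13 (97.8%) had 28, 30 and 28 reads in Rest_het and 15, 27 and 22 in WT (0.51 with SE 0.32, edgeR adjusted p 0.54). Both lay above 0 like Gm8730 but missed the threshold, and their counts stayed about an order of magnitude below those of Gm8730 in Rest_het. Whether some reads of Gm8730 were placed on these copies was not tested. Rplp0-ps1 had 0, 2 and 0 reads in Rest_het and 3, 0 and 0 in WT. Of the less similar Prdx2-like sequences, Prdx2-rs3 had 0, 1 and 0 reads in Rest_het and 0 in every WT library, and Gm21399 had 21, 26 and 10 in Rest_het and 14, 22 and 17 in WT. Of 160 genes that matched at least 50% of Gm15446, Zfp932 was the 1 at 90% identity or more. By BLAST score the next were 5430403G16Rik (80.8%) at 0.08 on the log2 scale and Gm17655 (81.8%) at -0.37 (edgeR adjusted p 0.90 and 0.82). The neighbour 4930522L14Rik (78.2%) lay at 0.70 (edgeR adjusted p 0.45).

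The pathways of the relatives were read from the same fit. Of the ribosomal P-stalk list (Rplp0, Rplp1, Rplp2, Mrto4 and Rplp0-ps1), 4 of 5 genes were tested and 0 called by edgeR or DESeq2, with 1, Rplp0, at an unadjusted p under 0.05. The stalk proteins Rplp1 and Rplp2 lay at 0.03 and -0.10 on the log2 scale (edgeR adjusted p 0.94 and 0.69), and Mrto4, which takes the place of P0 during ribosome assembly, -0.11 (0.60). The list's median was -0.11, beside 0.0054 for all tested genes. Of 11 tested peroxiredoxin and thioredoxin genes, edgeR and DESeq2 called 0, and 0 had an unadjusted edgeR p under 0.05, with a median of -0.02. The largest values among them were those of Prdx5, a mitochondrial and peroxisomal peroxiredoxin, at 0.14 (edgeR adjusted p 0.52) and Prdx6, a peroxiredoxin with a single active cysteine, at -0.14 (0.56).

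Of the SCAN and KRAB zinc-finger list, 15 of 18 genes were tested and 1 was lower by edgeR, 2 by DESeq2, against 0.0585% of all genes by edgeR and 0.826% in either direction by DESeq2. Zkscan1, a SCAN and KRAB zinc-finger gene on chromosome 5, fell to 120 ± 5.32 CPM in Rest_het, against 198 ± 1.97 CPM in WT (SD, n = 3 each; log2 fold change -0.72, edgeR adjusted p 0.012). Zfp157 was at -0.47 (edgeR adjusted p 0.13, and called by DESeq2), Zfp113 at -0.36 (0.35) and Zscan21 at -0.27 (0.36), each with an unadjusted p under 0.05 and none past the edgeR threshold. Zkscan1 and these genes are the 4 of the list at that unadjusted p. All lie in a single stretch, chr5:138085084-138460694, so they are not independent of each other and do not speak for the list as a whole. The list's median was -0.07. Its call ended without Rest_het replicate 1 or WT replicate 3 (edgeR adjusted p 0.070 each). Zkscan1 was among the genes called in earlier results of these data, so its call is no independent support.

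The 2 TEC genes and the pseudogene that lie inside other genes were set beside their hosts. Gm37100 lies in an intron of Erbb4, a neuregulin receptor gene, on the same strand. Erbb4 had 94, 119 and 110 reads in Rest_het and 132, 106 and 106 in WT, which gave 0.01 on the log2 scale (edgeR adjusted p 0.99), a value whose sign turned under some alternatives. Gm45293 lies in an intron of Fto, an RNA demethylase gene, on the same strand. Fto had 1829, 1818 and 1910 reads in Rest_het and 1840, 1856 and 1942 in WT (0.07, edgeR adjusted p 0.74). Neither host passed the edgeR threshold, and none of the 3 nested members shares exon bases with its host. Reads from unspliced host RNA that cross the member are counted for the member, so its own transcript and such host RNA cannot be told apart.

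Apart from the antisense gene 4831440D22Rik, other annotated genes inside the same hosts had few reads. Within Erbb4, Gm37735 had 4, 13 and 7 reads in Rest_het and 9, 13 and 13 in WT, and Gm37061 had 7, 13 and 23 in Rest_het and 1, 4 and 15 in WT. Within Fto, Gm45292 had 22, 9 and 19 reads in Rest_het and 14, 9 and 8 in WT. The antisense gene 4831440D22Rik, also within Fto, had 46, 42 and 58 in Rest_het and 37, 33 and 27 in WT (edgeR adjusted p 0.38). Of the other genes with reads, the groups did not overlap for 1 of 5 in Erbb4 (Gm16076, with 1, 4 and 3 reads in Rest_het and 14, 5 and 7 in WT), 1 of 6 in Fto (4831440D22Rik) and 0 of 5 in Cntnap5b, beside 19.3% of all tested genes. These genes were listed for their place alone.

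Tdpx-ps1 lies in an intron of Cntnap5b, a contactin-associated protein gene, on the opposite strand. Cntnap5b had 18, 19 and 24 reads in Rest_het and 38, 27 and 50 in WT, a log2 fold change of -0.81 with SE 0.32 (edgeR adjusted p 0.40, unadjusted 0.033). Host and member were thus both lower in every Rest_het library than in any WT library, but the host missed the threshold. The library chemistry does not mark strand, so reads of Cntnap5b introns and of Tdpx-ps1 cannot be separated by strand. Of the other 5 genes with reads inside Cntnap5b, Gm37877 had the most, with 4, 2 and 0 reads in Rest_het and 3, 17 and 13 in WT. Gm15446 overlaps the opposite-strand lincRNA Gm26808 over 12 exon bases, and that lincRNA had too few reads for the test. Of the 6 relatives and hosts that were tested, 0 were called by edgeR or by DESeq2, and 2, Rplp0 and Cntnap5b, had an unadjusted edgeR p under 0.05. Over all genes these shares were 0.123% by edgeR, 0.826% by DESeq2 and 11.7% at the unadjusted p.

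The strand columns of the count files split the reads of each member nearly evenly. For 5 members both columns summed exactly to the total, and for Gm15446 they exceeded it by 8 of 10246 reads. Gm37100 had 53 reads in Rest_het and 0 in WT in one column and 48 in Rest_het and 1 in WT in the other. Gm42980 had 54 in Rest_het and 1 in WT in one column, and 37 in Rest_het and 0 in WT in the other. Gm45293 had 2 in Rest_het and 98 in WT in one, and 3 in Rest_het and 70 in WT in the other. The shares of the first column ran from 46.1% for Gm8730 (exact 95% interval 43.0 to 49.1) to 59.8% for Gm42980 (49.0 to 69.9). This is near the even split of data without strand. The intervals of Gm8730 and Gm45293 (57.8%, 50.07 to 65.3) did not include 50%. Both columns are parts of the same reads that chose the members, so they show how the reads were counted and are no further evidence of a direction.

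None of the nearest tested genes on either side passed the edgeR threshold. Cdh11, a cadherin gene 79.2 kb from Gm8730, lay at -0.09 on the log2 scale (edgeR adjusted p 0.82), and Cdh5, the endothelial cadherin 1236 kb away on the other side, 0.29 (0.74). Around Tdpx-ps1, Pam, an enzyme of peptide amidation 1695 kb away, was at -0.09 (0.72) and Cdh20, another cadherin gene 4978 kb away, at 0.16 (0.85). Around Gm37100, Lancl1, a glutathione-binding protein gene 1076 kb away, was at -0.16 (0.53) and Gm37735, 523 kb away, at -0.44 (0.75). Around Gm45293, the matrix metalloproteinase gene Mmp2, 1192 kb away, was at 0.27 (0.74). Around Gm15446, 4930522L14Rik, 172 kb away, was at 0.70 (0.45). Several of these distances exceed 1 Mb, so parts of the surroundings of Gm8730, Tdpx-ps1, Gm37100 and Gm45293 held few genes that could be tested.

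The largest value among the nearest genes was next to Gm42980, which starts 13.0 kb past the end of Tmem132c, a transmembrane protein gene on the same strand. Tmem132c had 428, 301 and 352 reads in Rest_het and 141, 51 and 119 in WT, or 19.5 ± 3.30 CPM and 5.19 ± 2.18 CPM (SD, n = 3 each). Every Rest_het library lay above every WT library, as for Gm42980. The log2 fold change was 1.91 with SE 0.31 and missed the edgeR threshold (adjusted p 0.13, unadjusted 0.000236), while DESeq2 called it (adjusted p 9.1e-08). Without WT replicate 2, its lowest library, edgeR called it at a log2 fold change of 1.60 (adjusted p 0.027). On the other side, Slc15a4, a peptide and histidine transporter gene 15.6 kb away on the opposite strand, had 101, 100 and 96 reads in Rest_het and 83, 132 and 95 in WT, a value of 0.03 (edgeR adjusted p 0.98) whose sign turned under some alternatives. Reads that run past the end of Tmem132c into Gm42980 could not be looked for in gene counts.

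Within 1 Mb of the members lay 50 tested genes. edgeR called 0 of them, against 0.123% of all tested genes, and DESeq2 called 5, against 0.826%. At an unadjusted edgeR p under 0.05 stood 15 of the 50 (30.0%), 8 higher and 7 lower in Rest_het, beside 11.7% of all genes, and the groups did not overlap for 18 (36.0%), beside 19.3%. The median size of the log2 fold change was 0.31 beside 0.17. The genes around one member are not independent of each other, and 29 of the 50 lie around Gm15446, where 9 had an unadjusted p under 0.05. The genes called by DESeq2 were Tmem132c, and around Gm15446 Pus1, Zfp605, Ankle2 and Gm42595, named because DESeq2 called them. Pus1, a pseudouridine synthase gene, was at 0.73 (edgeR adjusted p 0.055) and the zinc-finger gene Zfp605 at 0.87 (0.12). Ankle2, a gene of nuclear envelope assembly, was at -0.48 (0.31) and the lincRNA Gm42595 at -0.67 (0.32). The genes around Gm15446 thus lay on both sides of 0, while Gm15446 itself was lower.

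**Figure D4:**
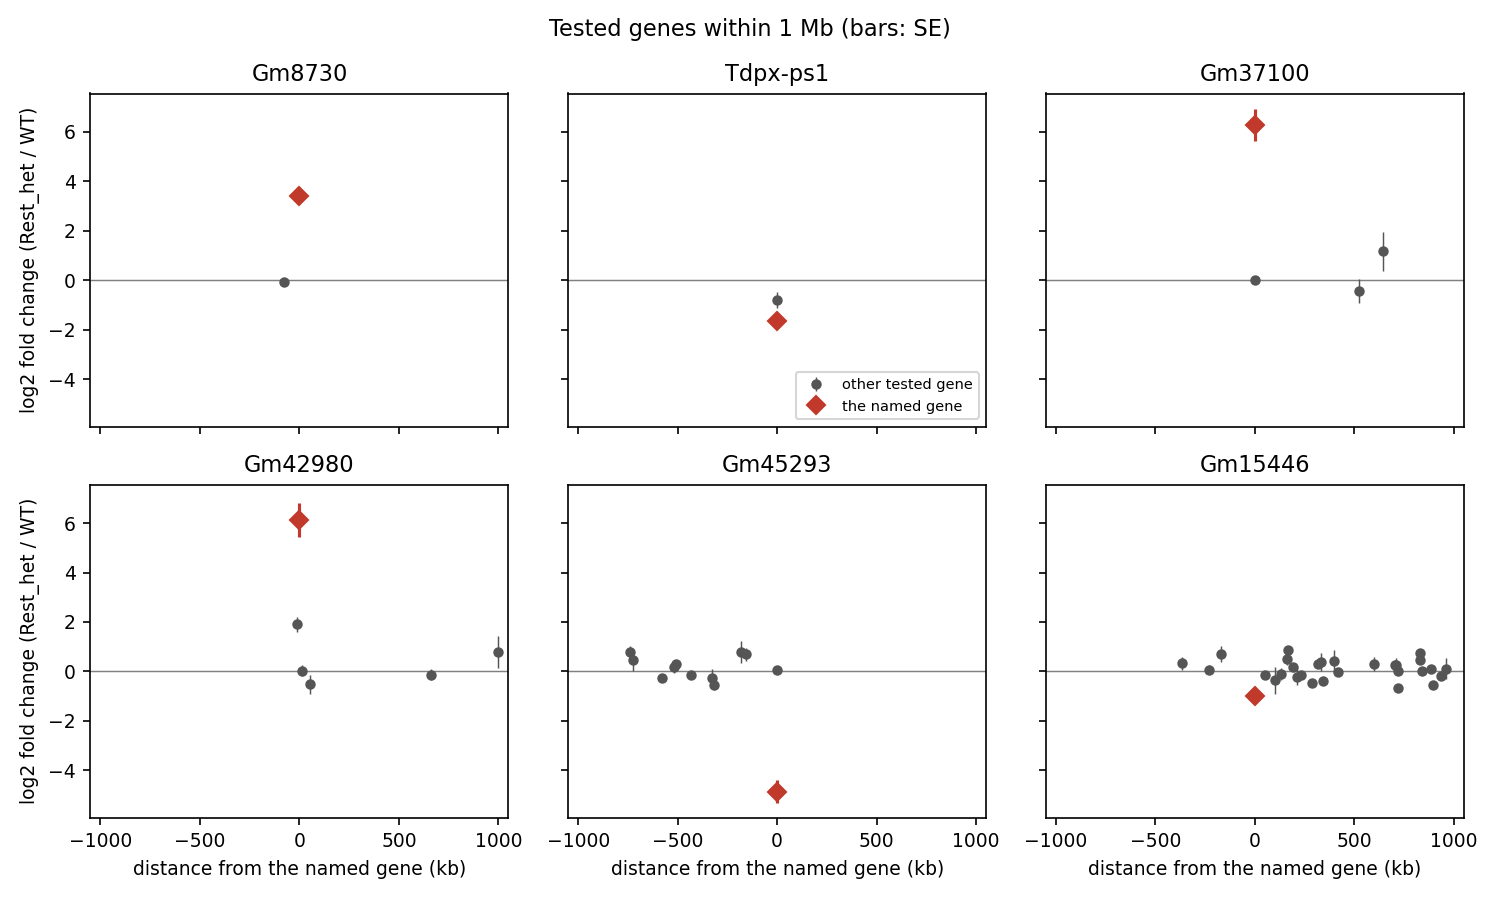
Log2 fold change of Rest_het over WT (y axis, bars are SE) of every tested gene within 1 Mb, by distance from the member in kb (x axis; hosts at 0), with the member as a red diamond. Tmem132c at 1.91 stands near Gm42980, while the other tested genes near the members lie between about -1 and 1 apart from 1 gene near Gm37100.

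The members lie 2 each on chromosomes 1, 5 and 8. These chromosomes also hold 7, 4 and 2 other genes called by edgeR, so all 19 called genes lie on them, beside 19.1% of all tested genes. The nearest other called gene was 1.47 Mb away for Gm15446 (Mn1), 2.59 Mb for Gm45293 (Sall1), 5.97 Mb for Tdpx-ps1 (Ing5), 10.5 Mb for Gm42980 (Zkscan1), 13.8 Mb for Gm8730 (Sall1) and 14.1 Mb for Gm37100 (Irs1). The calls of Mn1, Sall1, Zkscan1 and Irs1 each ended when at least 1 single library was left out. Of the members on chromosome 5, Gm15446 lies 32.6 Mb and Gm42980 50.3 Mb from Rest. Rplp0 lies on chromosome 5 and Prdx2 on chromosome 8, so neither pseudogene shares a chromosome with its source. From Rplp0 the nearest called gene was 0.784 Mb away (Git2, log2 fold change 1.77, edgeR adjusted p 0.00082). From Prdx2 it was 0.100 Mb away (Farsa, -0.74, edgeR adjusted p 0.020), and from Zfp932 1.41 Mb (Mn1). The sources of both pseudogenes thus lay closer to a called gene than the pseudogenes did. What part this has in the counts was not tested.

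The tested genes with the most similar profile over the 6 libraries were found by the root mean square distance of standardized log2 CPM, where 0 means the same shape. They are a description, since the genotype split dominates every member's profile. For Gm8730 they were Tmem163, a vesicular zinc transporter gene (0.048), Asb1, a SOCS-box gene (0.050), and the ciliary transport gene Traf3ip1 (0.10). For Tdpx-ps1 they included the transcriptional regulator gene Mn1 (0.073) and Serinc1 (0.11). For Gm45293 they included the N-glycan branching gene Mgat5 (0.10) and the long noncoding RNA Miat (0.13). For Gm37100 and Gm42980 the closest gene was the same, the methyltransferase gene Mettl13 (0.063 and 0.044), and Asb1 was among the next (0.12 for each). Standardizing removes the size of a change. Asb1 stood at a log2 fold change of 6.23, but Mettl13 at 0.31 (edgeR adjusted p 0.37). Serinc1 and Miat stood at -0.18 and -0.33 (edgeR adjusted p 0.40 and 0.32). For Gm15446 they were the insulin receptor adaptor gene Irs1 (0.056), Napsa (0.16) and Zkscan1 (0.16).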

How the data were processed

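The files hold read counts per gene as deposited. The submitters' processing notes name STAR 2.5.2a and the build GRCm38.p4. The annotation release is not given in the sources used here. Per the labels' protocols, oligo-dT-primed cDNA was amplified for 12 PCR cycles and 125 pg tagmented with Nextera XT, giving paired reads of 126 bases without strand or molecular identifiers. The unstranded column was used. Rows without a gene were left out. Of read pairs, 6.29 to 7.48% mapped to several places, 21.4 to 26.9% lay in no gene, 2.54 to 2.85% were ambiguous and 1.21 to 1.45% unmapped. A deposited table of normalized signal for 18995 genes (the processing notes name DESeq2) equalled the counts over 1 factor per library and was used for 1 alternative.

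All 15385 genes that passed filterByExpr (count minimum 10, total 15) were tested by the quasi-likelihood test of edgeR 4.0.16 (R 4.3.3) with TMM scaling, genotype as the single term and Benjamini-Hochberg adjustment, called at an adjusted p under 0.05. SE is the log2 fold change over the root of F. The test was checked on simulated data. Gene models came from GENCODE M21 (48349 of 48709 IDs matched without version). Relatives were found with BLAST 2.17.0 at an E value of 1e-05. Plots used Python 3.11.15 and matplotlib 3.10.9.

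Named genes were the members and Rest, overlapping and nearest tested genes, relatives, called or leading list members, the 3 most similar profiles per member (1 such gene is not reported here), and the 3 predicted genes nearest outside the threshold. Others inside hosts, copies of the relatives and neighbours called by DESeq2 were named after their values were seen. The members and lists were chosen with earlier results of these data known. Alternatives were scaling (DESeq2 size factors, upper quartile), DESeq2 1.42.0, limma 3.58.1 on log2 of the deposited signal plus 1, both filters, strand columns, the replicate number as a block, and each library left out. Splicing was not analysed here.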

Additional observations from a re-analysis of the deposited data

Results flagged for a closer look

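Signal outside the gene counts drew attention in the case of 2 transgenes, and both touch the comparison of all 6 genes. LacZ had 0 reads in the Rest_het libraries and 121 in the WT libraries (27, 51 and 43). Cre-ERT2 had 43 reads in the Rest_het libraries (10, 16 and 17) and 0 in the WT libraries. Each transgene was therefore seen in every library of one genotype and in none of the other, at the depth of these libraries. The labels mention neither sequence. The part of these transgenes in the genotype differences was not tested.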

How the results depend on the processing

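The log2 fold changes of the 6 members, whose direction and separation their choice fixed, ranged over 16 alternatives from 3.25 to 3.57 for Gm8730, -1.73 to -1.57 for Tdpx-ps1, 4.80 to 8.12 for Gm37100, 4.65 to 7.97 for Gm42980, -5.27 to -4.29 for Gm45293 and -1.06 to -0.95 for Gm15446. Of all genes, edgeR called 19, DESeq2 127, edgeR without a filter 107, and edgeR with single libraries left out 12 (without WT replicate 1) to 35 (without WT replicate 2). Within 1 Mb of the members the count of 0 became 5 by DESeq2, 3 without a filter (Pus1, Tmem132c and Zfp605) and 0 to 1 with single libraries left out (Tmem132c without WT replicate 2). Windows of 100 bases raised the share found in another transcript to 36.1% for Gm8730, 12.2% for Tdpx-ps1 and 22.1% for Gm15446. The replicate numbers did not pair the samples (correlations of same-numbered libraries 0.011, 0.037 and -0.14, and not every library was closest to its own number); with the replicate block edgeR called 6 genes. Directions turned, none past the threshold, for Erbb4 (-0.088 in the second strand column, -0.0067 with upper-quartile factors, -0.081 to 0.10 with single libraries left out), Cdh11 (0.015 in the first strand column, -0.17 to 0.026 with single libraries left out), Slc15a4 (-0.062 in the first strand column, -0.14 to 0.28 with single libraries left out) and Rplp1 (-0.055 to 0.11 with single libraries left out). Members past the edgeR threshold numbered 1 of 6 with the block (Gm8730), 4 in the first strand column (not Gm37100 and Gm42980), 3 in the second (not Tdpx-ps1, Gm42980 and Gm45293) and 4 to 6 with single libraries left out. Zkscan1 lost its call with the block (edgeR adjusted p 0.089), without Rest_het replicate 1 (0.070) and without WT replicate 3 (0.070). The causes were not tested. Low depth limits Gm37100, Gm42980 and Gm45293, whose lower group held 1 to 5 reads in all.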
